A study of Rattus norvegicus with 9 samples.

Results

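Genes of fatty acid degradation and of PPAR signalling were examined in rat cortical neuron cultures after oxygen-glucose deprivation (OGD), with and without Wnt3a and Rspondin 1. A gene was included when the KEGG annotation of the deposited tables placed it in the fatty acid degradation pathway or the PPAR signalling pathway. By that rule 100 of 22050 annotated genes qualified, and 99 were kept. The gene left out was Acat2, which serves sterol synthesis, and Hmgcs1 did not occur under either pathway. Of the 99 genes, 20 were listed for fatty acid degradation alone, 57 for PPAR signalling alone and 22 for both.

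Fatty acids enter a cell through transport proteins, are kept in solution by binding proteins or stored in lipid droplets, and are activated to acyl-CoA by synthetases. The carnitine shuttle carries long acyl chains into mitochondria, where repeated rounds of dehydrogenation, hydration, dehydrogenation and thiolysis (beta-oxidation) release acetyl-CoA. PPAR receptors are nuclear receptors that bind fatty acids, pair with RXR receptors on DNA and switch on many of the genes of this route. In brain, fatty acid oxidation is known mainly from astrocytes, and neurons are known to rely on it little.

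Primary neurons were grown from the cortex of Sprague Dawley rat embryos at embryonic day 19, and 9 RNA libraries were sequenced, 3 for each of 3 groups. Controls received no treatment. The OGD group spent 4.5 h at 1% oxygen in medium that lacked glucose and pyruvate, followed by normal oxygen and the usual medium. In the remaining group, cells subjected to OGD were given Wnt3a (100 ng/ml), a secreted Wnt ligand, and Rspondin 1 (50 ng/ml), a secreted protein that strengthens Wnt responses, over 24 h. Length and oxygen level of the deprivation are stated for the OGD group only, and the tables name that group vehicle. No source used here gives the interval between OGD and harvest. Comparisons with control therefore also carry the change of medium, reoxygenation and further handling that controls were spared. The labels do not state whether replicates are separate cultures, and the p-values accordingly reflect the spread between libraries of a group, which could be technical spread alone.

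Library totals lay between 14285914 and 25048521 counts. Controls stood far from the other 6 libraries on the first principal component of all tested genes, which held 84.1% of the variance, and the second component (4.6%) set OGD replicate 1 apart from the rest. Each of 10 neuron markers was lower after OGD, and their summed level went from 2790 to 2930 FPKM (fragments scaled by gene length and library total) in controls to 475 to 642 FPKM. Astrocyte markers were higher for 9 of 10, with sums of 2470 to 2640 FPKM in controls and 6660 to 7270 FPKM after OGD. The neural progenitor list held 5 higher and 1 lower of 7, with sums of 280 to 311 against 1430 to 1750 FPKM, the oligodendrocyte lineage list 6 higher and 3 lower of 9, with sums of 428 to 513 against 1090 to 1110 FPKM, and the mural and fibroblast list 3 higher and 1 lower of 5 tested, with sums of 91.2 to 115 against 669 to 884 FPKM. Microglial markers were higher for all 6 tested, at sums of 3.35 to 5.34 against 20.6 to 23 FPKM. The labels name cortical neurons, and neuron markers were present in every library, as were those of astrocytes. In bulk libraries, fewer cells of a type and less RNA per cell cannot be told apart, and the part of these shifts in the results on lipid genes was not tested. Adipocyte and liver markers were at low levels, with sums over 7 genes of 0.29 to 0.79 FPKM in controls, 0.73 to 1.06 FPKM after OGD and 1.03 to 1.39 FPKM with Wnt3a plus Rspondin 1. The 1 gene of that list that was tested, the albumin gene Alb, was higher after OGD (log2 change 2.02 ± 0.63, adjusted p = 0.0113) at 0.213 ± 0.0306 FPKM. Endothelial markers summed to 0.35 to 0.51 FPKM in controls and 1.41 to 1.92 FPKM after OGD, and both tested genes, Kdr and Tek, were higher, while Cldn5 had no read and Cdh5 was too low to test.

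Most tested genes of both pathways were higher after OGD. Of the 99 genes, 70 had enough reads to be tested, and edgeR's quasi-likelihood test, with p-values adjusted over all 13693 tested genes at a threshold of 0.05, called 51 of them higher in OGD than in control and 13 lower, and 6 were not called. Over all tested genes 73.1% were called, 36.3% higher and 36.8% lower. The median log2 change was 0.82 for the 70 genes and 0.02 for all tested genes. At least 2-fold differences were called for 31 higher and 8 lower genes, where all tested genes gave 14.2% higher and 18.8% lower. Some genes pass the filter on low counts only through the group in which they are high. Among the 64 genes that passed it in both control and OGD, 47 were higher, 13 lower and 4 not called, with a median of 0.80, beside 37.1% higher, 36.3% lower and a median of 0.03 over all genes that passed in both.

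The shift was present in each OGD library. Per library, the median log2 difference of the tested genes from the control mean was 0.91, 0.76 and 0.76 in OGD replicates 1 to 3. Single controls lay between -0.02 and 0.02, but each is part of that mean and is thereby held close to it. Together the 99 genes took 1.31% to 1.36% of all counts in controls, 2.16% to 2.21% in OGD and 2.11% to 2.13% in OGD with Wnt3a plus Rspondin 1. By pathway, 15 of the 18 tested genes found only under fatty acid degradation were higher and 2 lower (median log2 change 0.96). Genes listed only for PPAR signalling held 25 higher and 7 lower of 36 tested (median 0.78), and those under both pathways 11 higher and 4 lower of 16 (median 0.85).

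**Figure D1:**
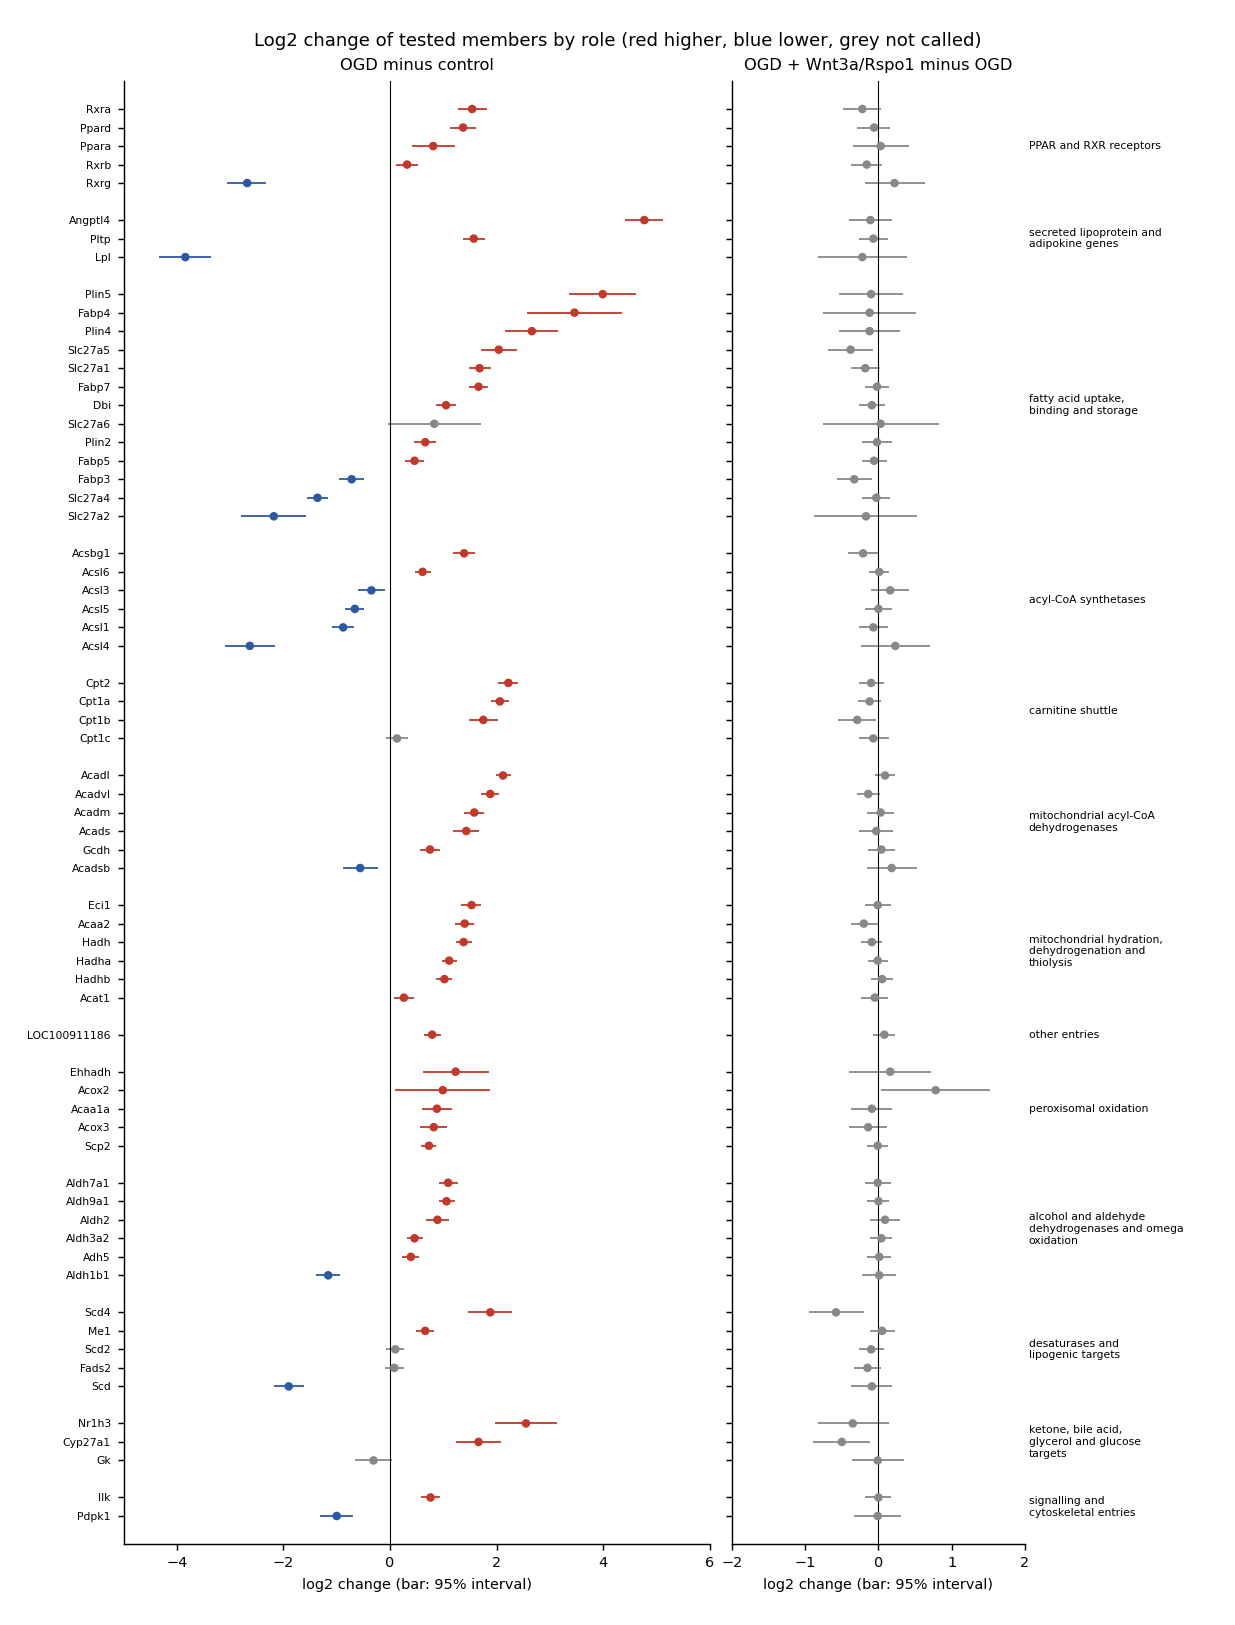
Log2 change of tested genes, grouped by role, for OGD minus control (left) and OGD with Wnt3a plus Rspondin 1 minus OGD (right). Points are fitted changes, bars are 95% intervals, and red, blue and grey stand for higher, lower and not called; Echs1 is left out because its interval exceeds the axis, and genes not reported here are not drawn. On the left most genes are red, Angptl4 farthest at 4.77, and on the right none is coloured.

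PPAR alpha, encoded by Ppara, drives fatty acid oxidation in fasted tissue, PPAR delta (Ppard) is the widely expressed form, and PPAR gamma (Pparg) directs fat storage in adipocytes. Ppard was the most abundant PPAR on the length-normalized FPKM scale, at 82.7% to 85% of the summed FPKM of the 3 genes in controls and 87.4% to 88.9% in OGD. Its level was 7.67, 8.14 and 7.08 FPKM in control replicates 1 to 3 and 24.3, 19 and 19.2 FPKM in OGD, so the groups did not overlap. The log2 change was 1.37 ± 0.11 (± SE for log2 changes throughout), 2.59-fold, with an adjusted p of 1.28e-07. Ppara went from 1.42 ± 0.0854 FPKM (mean ± SD, n = 3) to 2.68 ± 0.183 FPKM and rose by 0.81 ± 0.18 (adjusted p = 0.0015). Pparg had 48 reads in all 9 libraries together, at 0.06 to 0.11 FPKM in controls and 0.04 to 0.25 FPKM in OGD, and was not tested.

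The 3 RXR partners moved apart. Rxrg, the RXR form known from neurons and muscle, stood at 9.75, 7.58 and 8.7 FPKM in controls and at 1.7, 1.32 and 1.35 FPKM in OGD, with no overlap. It fell by 2.68 ± 0.17 on the log2 scale, 6.42-fold (adjusted p = 1.39e-08). Rxra, the form best known as PPAR partner in liver, was at 8.52, 8.36 and 7.68 FPKM in controls and 30.3, 22.1 and 23.4 FPKM in OGD, and rose by 1.54 ± 0.13 (adjusted p = 1.71e-07). OGD replicate 1 was the highest library for Rxra, Rxrb and Ppard. Rxrb, the most abundant RXR in every library, rose by 0.32 ± 0.10 (adjusted p = 0.00971). Its change against control in the cultures with Wnt3a plus Rspondin 1 was 0.16 and was not called. Rxrg thus made up 17.7% to 21.4% of summed RXR FPKM in controls and 2.22% to 2.3% in OGD, and Rxra 18.3% to 19.6% and 38.4% to 39.9%.

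PPAR and RXR pairs bind a direct repeat of AGGTCA with 1 base between its copies. The promoters of these genes were searched for that motif (AGGTCA, any base N, AGGTCA) on both strands, in RefSeq windows of rat build GRCr8 that run from 250 bases before to 50 after each gene's start. Windows were found for 75 of the 99 genes (82 windows). No window of these genes held the exact motif, which 0.0538% of all 33469 windows held. With at most 1 mismatch among its 12 fixed letters it was found in 2 windows (2.44%, against 0.439% of all), and with at most 2 mismatches in 6 windows (7.32%, against 3.77%). A match is a description of letters and not evidence of binding, and sites outside the windows were not searched. The stretches just before the start of the genes with the closest matches and of Slc27a2 are shown so that their differing values can be read beside the sites. Each runs 5′ to 3′ on the gene's strand and ends 1 base before the start, with the match in capitals.
Acadvl, chr10:55236706-55236825, minus strand, match 17 to 5 bases before the start: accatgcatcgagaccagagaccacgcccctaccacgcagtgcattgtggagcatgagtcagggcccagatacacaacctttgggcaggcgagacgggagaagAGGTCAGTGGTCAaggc
Fabp1, chr4:104749220-104749339, plus strand, match on the opposite strand, 77 to 65 bases before: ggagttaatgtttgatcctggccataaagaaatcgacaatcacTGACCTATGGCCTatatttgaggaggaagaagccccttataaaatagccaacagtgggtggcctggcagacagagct
Slc27a2, chr3:134257981-134258100, plus strand, match on the opposite strand, 76 to 64 bases before: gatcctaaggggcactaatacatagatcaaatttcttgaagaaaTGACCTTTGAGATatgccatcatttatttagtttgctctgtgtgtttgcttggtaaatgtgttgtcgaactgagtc
Acadvl, which codes for the very long chain acyl-CoA dehydrogenase, rose by 1.88 ± 0.08 after OGD. Fabp1, the liver fatty acid binding protein gene, had no read in any library, and the fatty acid transporter gene Slc27a2 fell by 2.18 ± 0.28. The windows with 2 mismatches that are not shown belong to Cyp8b1 and Fabp2, both without a read, and Echs1, which was not called. Among the genes of the 6 windows, Acadvl was thus the only one that rose and Slc27a2 the only one that fell.

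Among secreted proteins, Angptl4 and Lpl went opposite ways. Lpl codes for lipoprotein lipase, which frees fatty acids from circulating triglyceride, and Angptl4 for its secreted inhibitor, a gene induced by PPARs, fasting and hypoxia. Angptl4 (ENSRNOG00000007545) was at 7.77, 6.21 and 10.1 FPKM in controls and at 234, 214 and 256 FPKM in OGD, where every OGD library lay far above every control. Its log2 change of 4.77 ± 0.17, 27.2-fold, was the largest rise of the 70 tested genes (adjusted p = 3.89e-10). Lpl (ENSRNOG00000012181) was at 7.25, 6.95 and 8.18 FPKM in controls and at 0.38, 0.44 and 0.85 FPKM in OGD, and it fell by 3.84 ± 0.22, 14.3-fold, the largest fall of the 70 (adjusted p = 7.32e-09). Pltp, a phospholipid transfer protein gene, rose by 1.57 ± 0.10 from 9.07 ± 0.469 to 28.5 ± 2.18 FPKM. The other 7 genes of this group were not tested: Mmp1 and Mmp1b had no read, and Adipoq, Apoa1, Apoa2, Apoa5 and Apoc3 had 1 to 60 reads in all libraries together. The 250 bases before the start of Angptl4 are shown because it led the rises; capitals mark a TATAAA element that begins 39 bases before the start, a word that 8.06% of all windows and 8 of the 82 windows of these genes held before the start.
Angptl4, chr7:15258682-15258931, minus strand: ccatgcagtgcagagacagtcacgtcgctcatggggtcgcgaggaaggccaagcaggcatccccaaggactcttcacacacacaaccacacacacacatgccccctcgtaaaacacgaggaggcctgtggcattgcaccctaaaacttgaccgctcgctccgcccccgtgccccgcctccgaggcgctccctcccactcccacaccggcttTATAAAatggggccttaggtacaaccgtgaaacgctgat

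**Figure D2:**
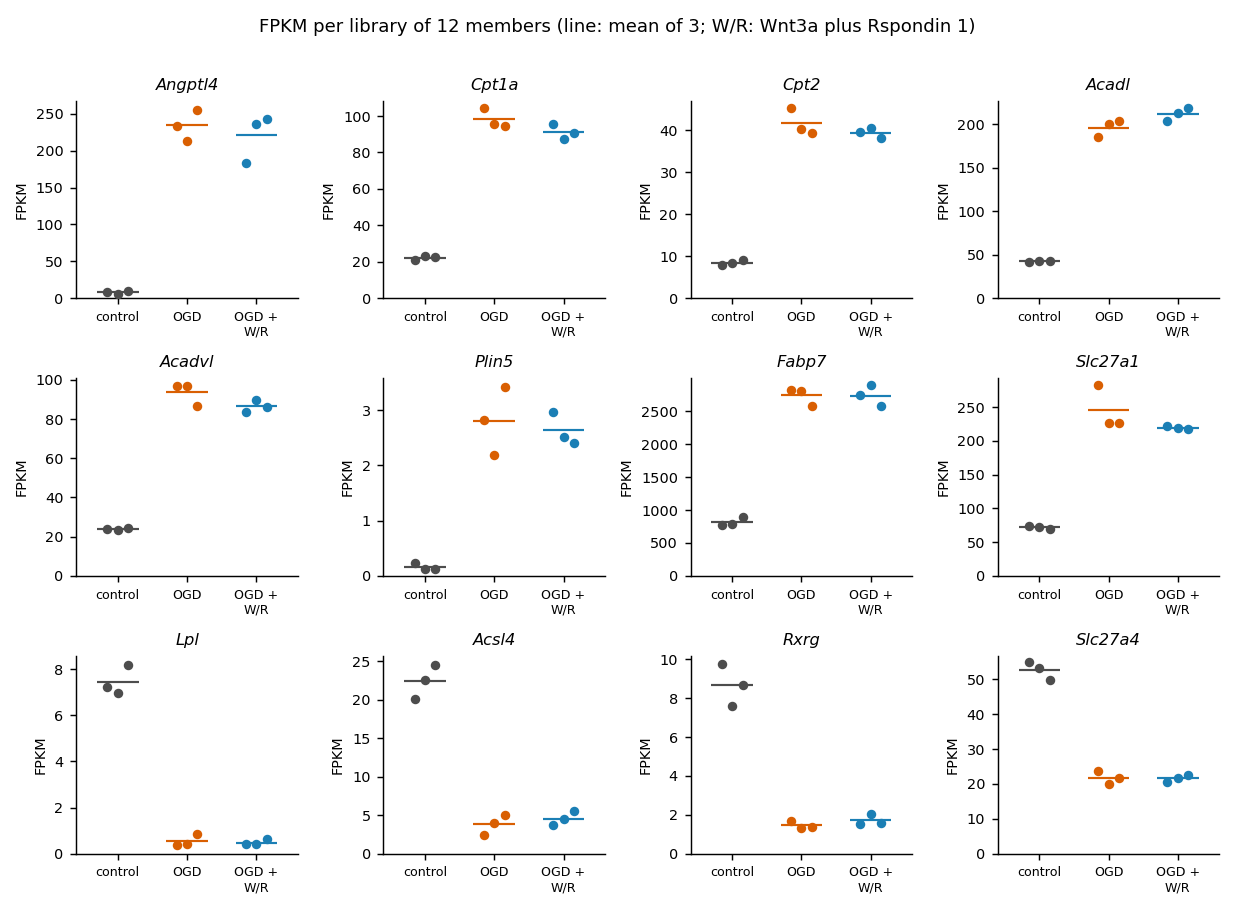
FPKM of 12 genes in each of 9 libraries, with a line at the mean of 3; W/R stands for Wnt3a plus Rspondin 1 and every axis starts at 0. In the upper and middle rows all OGD libraries lie above all controls (Cpt1a, 20.98 to 23.09 against 94.71 to 104.34 FPKM), and in the lower row, from Lpl to Slc27a4, all lie below.

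Genes of uptake, binding and storage were mixed, with 9 of 13 tested higher, 3 lower and a median log2 change of 1.05. Fabp7 (ENSRNOG00000000814), the brain fatty acid binding protein of radial glia and astrocytes, was at 767, 782 and 896 FPKM in controls and 2826, 2804 and 2586 FPKM in OGD. It rose by 1.66 ± 0.08, 3.17-fold (adjusted p = 1.94e-09), and the groups did not overlap. Fabp3, the heart type that mature neurons also carry, fell by 0.72 ± 0.11 (adjusted p = 5.79e-05), from 102 ± 4.91 to 66.1 ± 8.73 FPKM. Fabp5, the epidermal type, rose by 0.46 ± 0.08 (uncertain, since near-identical copies can share its reads), and Fabp4, the adipocyte type, rose by 3.46 ± 0.41 but reached only 2.74 ± 0.756 FPKM. As a share of the summed FPKM of these 4 genes, Fabp7 held 50.2% to 54.6% in controls and 72.7% to 73.6% in OGD, and Fabp3 5.94% to 7.01% and 1.47% to 1.96%. Astrocyte and progenitor markers were higher in the same libraries (sums given above), and their part in the Fabp7 result was not tested. Fabp7 carried no TATAAA before its start, but a single TGACCT, one arm of the repeat read on the opposite strand, in capitals, which begins 196 bases before it. Such an arm, AGGTCA on either strand, occurred in 16 of the 82 windows (19.5%) and in 16.2% of all windows.
Fabp7, chr20:37669356-37669605, plus strand: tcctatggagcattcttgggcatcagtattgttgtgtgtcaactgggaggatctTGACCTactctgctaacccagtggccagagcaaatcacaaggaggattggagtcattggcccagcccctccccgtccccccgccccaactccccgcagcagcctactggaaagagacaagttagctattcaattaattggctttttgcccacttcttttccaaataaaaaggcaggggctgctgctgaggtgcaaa

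The fatty acid transport protein genes split between rises and falls. Slc27a1 was at 74, 71.7 and 70 FPKM in controls and 282, 227 and 226 FPKM in OGD, and rose by 1.68 ± 0.09 (adjusted p = 4.67e-09). Slc27a4 went the other way, from 54.9, 53.3 and 49.8 FPKM to 23.7, 19.9 and 21.7 FPKM, and fell by 1.36 ± 0.09 (adjusted p = 1.39e-08). Neither gene's groups overlapped. Slc27a5 rose by 2.04 ± 0.16 to 7.02 ± 1.22 FPKM, Slc27a2 fell by 2.18 ± 0.28 to 0.45 ± 0.161 FPKM, and Slc27a6, at 0.137 ± 0.0611 and 0.24 ± 0.0361 FPKM, was not called (log2 change 0.83 ± 0.40, adjusted p = 0.0785). Of the lipid droplet coat genes, 3 in the PPAR pathway were tested and all were higher. Plin5, which tethers droplets to mitochondria in oxidative tissue, was at 0.23, 0.13 and 0.12 FPKM in controls and 2.82, 2.18 and 3.41 FPKM in OGD. That was a log2 rise of 3.99 ± 0.29 (adjusted p = 5.17e-08). Plin4 rose by 2.66 ± 0.23 to 3.04 ± 0.632 FPKM, and Plin2, the common droplet coat gene, by 0.66 ± 0.09 to 40.2 ± 2.24 FPKM. Plin3, a coat gene outside the annotation rule, was at 1.87 ± 0.401 and 2.84 ± 0.129 FPKM and was not called (log2 change 0.50 ± 0.25, adjusted p = 0.0839). Dbi, which codes for the acyl-CoA binding protein and was among the 3 most abundant of the 99 genes in controls, rose by 1.05 ± 0.08 from 876 ± 21.9 to 1920 ± 173 FPKM. Untested in this group were Fabp1, Fabp2 and Fabp6, all without a read, Olr1 with 38 reads and the adipocyte droplet gene Plin1 with 33.

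Acyl-CoA synthetases, which activate fatty acids, were the only role group of several tested genes in which falls outnumbered rises, 4 against 2 of 6, with a median log2 change of -0.51. Acsl4, which prefers arachidonic acid, was at 20, 22.6 and 24.6 FPKM in controls and 2.42, 3.96 and 5.08 FPKM in OGD, without overlap. It fell by 2.63 ± 0.21, 6.21-fold (adjusted p = 5.85e-07). Acsl1, the form tied to oxidation in liver and heart, fell by 0.88 ± 0.09, Acsl5 by 0.66 ± 0.08 and Acsl3 by 0.35 ± 0.12. For Acsl3 the FPKM ranges overlapped, at 70.1 to 76.5 in controls and 48.2 to 70.9 in OGD, and with Wnt3a plus Rspondin 1 against control its change of -0.19 was not called. Acsbg1, a synthetase of glia, was the most abundant member at 169, 184 and 157 FPKM in controls and 526, 455 and 433 FPKM in OGD, and it rose by 1.39 ± 0.09 (adjusted p = 2.63e-08). Acsl6, the form enriched in brain, rose by 0.61 ± 0.07 (1.53-fold) in the fit of counts. Its FPKM rose by more than that, from 58.6 ± 3.06 to 111 ± 5.52. Of the summed FPKM of the 6 genes, Acsbg1 held 44.7% to 48.3% in controls and 67% to 73.6% in OGD, and Acsl4 5.62% to 6.99% and 0.339% to 0.786%. Acsbg2 had 4 reads and was not tested.

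**Figure D3:**
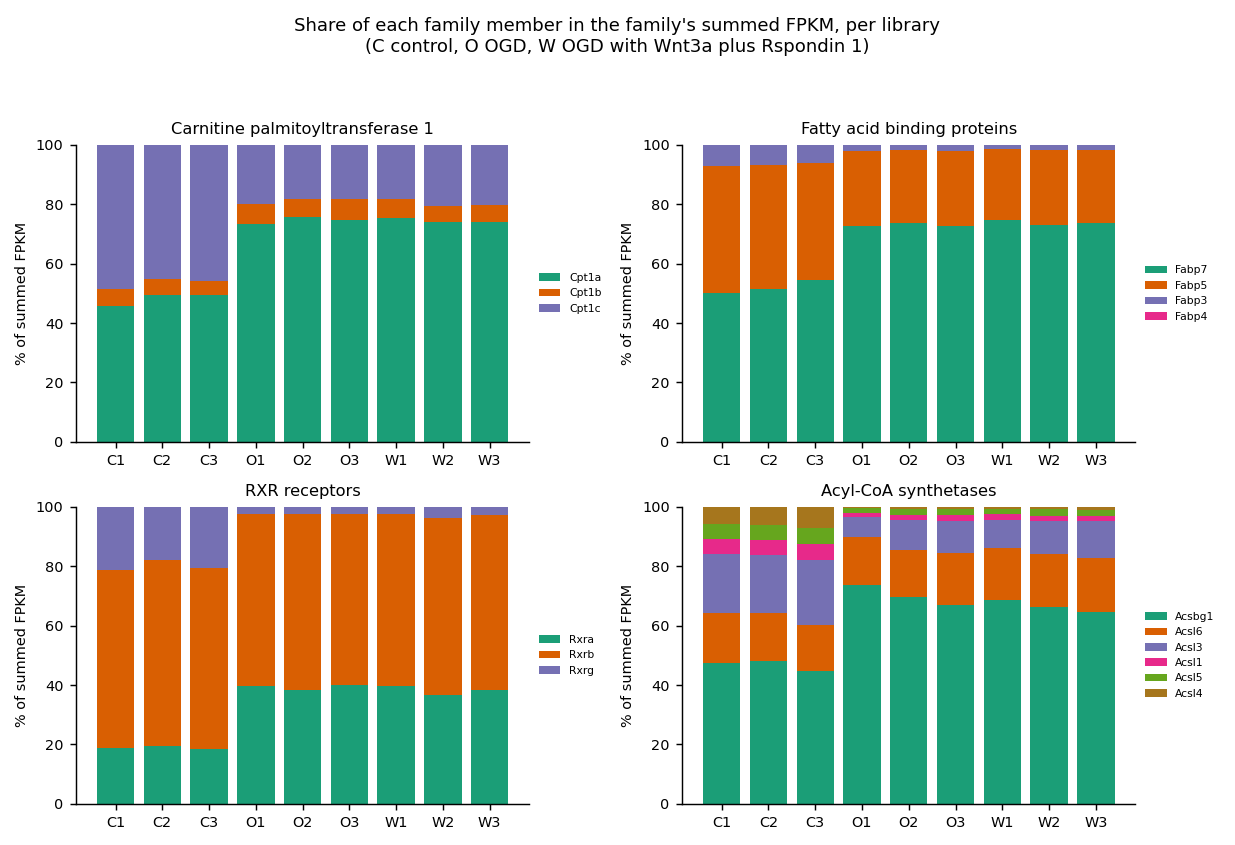
Share of each gene in the summed FPKM of its family, per library (C control, O OGD, W OGD with Wnt3a plus Rspondin 1, numbered by replicate). Cpt1a, Fabp7 and Acsbg1 take more of their family in all O and W libraries than in any C library, while Rxrg drops from 17.7% or more to 3.6% or less.

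In the carnitine shuttle 3 of 4 genes rose and none fell. Cpt1a (ENSRNOG00000014254) codes for the liver-type carnitine palmitoyltransferase 1, the rate-controlling enzyme of mitochondrial fatty acid entry. Its level was 21, 23.1 and 22.4 FPKM in controls and 104, 95.5 and 94.7 FPKM in OGD, 4.18-fold higher at a log2 change of 2.06 ± 0.08 (adjusted p = 4.1e-10). Cpt2, the enzyme of the inner membrane that completes the transfer, was at 7.87, 8.46 and 8.98 FPKM in controls and 45.2, 40.2 and 39.4 FPKM in OGD, and rose by 2.22 ± 0.09 (adjusted p = 5.08e-10). Neither gene's groups overlapped. Cpt1b, the muscle type, rose by 1.75 ± 0.13 to 8.56 ± 0.92 FPKM. Cpt1c, the neuron-enriched form that resides in the endoplasmic reticulum and contributes little to oxidation, was at 21.3 ± 0.779 and 24.9 ± 2.98 FPKM, a log2 change of 0.13 ± 0.09 that was not called (adjusted p = 0.213, 95% interval -0.07 to 0.34). Cpt1a accordingly made up 45.8% to 49.5% of summed CPT1 FPKM in controls and 73.5% to 75.7% in OGD.

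Mitochondrial acyl-CoA dehydrogenases, which start each round of beta-oxidation, rose for 5 of 6 genes with a median log2 change of 1.5. Acadl (ENSRNOG00000012966), the long chain enzyme, was at 42, 42.4 and 43 FPKM in controls and 185, 200 and 204 FPKM in OGD. It rose by 2.12 ± 0.07, 4.35-fold (adjusted p = 2.39e-10). Acadvl was at 24.2, 23.2 and 24.5 FPKM in controls and 97.1, 96.8 and 86.7 FPKM in OGD, where every library exceeded every control (adjusted p = 6.34e-10). Of the others, Acadm (medium chain) rose by 1.58 ± 0.09, Acads (short chain) by 1.43 ± 0.11 and Gcdh, which acts on glutaryl-CoA from lysine, by 0.75 ± 0.09. Acadsb, whose enzyme acts on short branched chains from isoleucine, fell by 0.56 ± 0.15 (adjusted p = 0.00535), from 9.43 ± 1.13 to 6.78 ± 1.51 FPKM.

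The later mitochondrial steps moved with them, 6 of 7 higher and none lower (median 1.11). Hadha and Hadhb, the subunits of the trifunctional protein for long chains, rose by 1.11 ± 0.06 and 1.02 ± 0.07, from 68.8 ± 1.96 to 158 ± 6.29 FPKM and from 57.3 ± 2.13 to 123 ± 9.26 FPKM. Hadh, the short chain hydroxyacyl-CoA dehydrogenase, rose by 1.38 ± 0.07, the thiolase gene Acaa2 by 1.40 ± 0.09 and Eci1, an isomerase needed for unsaturated chains, by 1.53 ± 0.09. Acat1, whose thiolase also takes part in ketone body and isoleucine breakdown, rose least, by 0.26 ± 0.09. Echs1, the short chain hydratase, had 62, 0 and 114 reads in controls, 0, 175 and 0 in OGD and none with Wnt3a plus Rspondin 1, a pattern in which replicates of a group disagree. Some reads of Echs1 may have gone to another entry of the same pathway, LOC100911186, but the sequences were not compared. That entry was at 39.6 to 43.9 FPKM in controls and 75.4 to 79.4 FPKM in OGD and rose by 0.79 ± 0.07. The values of both entries are therefore uncertain. The other placeholder entries (LOC316124, LOC681458 and RGD1565355) had at most 49 reads and were not tested.

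Peroxisomal oxidation, which shortens very long and branched chains, rose for all 6 genes tested (median 0.85, beside 1.5 and 1.11 in the mitochondrial groups). Scp2, which codes for a peroxisomal thiolase and lipid carrier, rose by 0.73 ± 0.07, Acox3 by 0.82 ± 0.12 and the thiolase gene Acaa1a by 0.88 ± 0.13. Ehhadh, the bifunctional enzyme gene, rose by 1.23 ± 0.29 but stayed at 0.87 ± 0.215 FPKM. Acox2, for branched chains and bile acid precursors, was at 0.08 to 0.19 FPKM in controls and 0.25 to 0.28 FPKM in OGD (log2 change 0.99 ± 0.41, adjusted p = 0.0434).

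Targets of sterol, glycerol and glucose metabolism were mostly low. Nr1h3, which codes for the oxysterol receptor LXR alpha, rose by 2.55 ± 0.27 to 2.58 ± 0.687 FPKM and Cyp27a1, a sterol hydroxylase, by 1.66 ± 0.19 to 2.65 ± 0.298 FPKM. Gk, glycerol kinase, was at 3.67 ± 0.391 and 3.49 ± 0.831 FPKM and was not called (log2 change of counts -0.31 ± 0.16, adjusted p = 0.101). Liver and brown fat targets were at or near 0: Aqp7, Cyp8b1 and Pck1 had no read, Cyp7a1 had 2, and Gk2 and Ucp1 had 1 each.

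Desaturases and lipogenic targets of the PPAR list had no common direction, with 2 higher, 1 lower and 2 not called of 5 (median 0.10). Scd2, the main stearoyl-CoA desaturase of brain and the most abundant of the 99 genes in controls, was at 1072, 1137 and 1099 FPKM in controls and 1113, 1324 and 1321 FPKM in OGD. The ranges overlapped, and the change of 0.10 ± 0.08 was not called (adjusted p = 0.266, 95% interval -0.07 to 0.26). Scd fell by 1.90 ± 0.13 from 40.3 ± 7.39 to 11.4 ± 1.32 FPKM, and Scd4 rose by 1.88 ± 0.19 from 1.27 ± 0.118 to 5 ± 0.644 FPKM. These desaturase genes are close copies, and how shared reads were divided in counting is not stated. Fads2, the delta-6 desaturase gene, was at 225 to 263 FPKM in controls and 267 to 298 FPKM in OGD (log2 change 0.08 ± 0.09, adjusted p = 0.389), and Me1, malic enzyme, rose by 0.66 ± 0.08.

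Alcohol and aldehyde dehydrogenases were higher for 5 of 6 tested genes (median 0.68). Aldh7a1 rose by 1.09 ± 0.09, Aldh9a1, which also takes part in carnitine synthesis, by 1.06 ± 0.07 and the mitochondrial Aldh2 by 0.89 ± 0.10 to 68.2 ± 8.51 FPKM. Aldh3a2, for fatty aldehydes, and Adh5, for formaldehyde, rose by 0.46 ± 0.07 and 0.39 ± 0.08. Aldh1b1 fell by 1.16 ± 0.10 from 12.1 ± 0.575 to 5.78 ± 0.182 FPKM. The omega oxidation genes Cyp4a1, Cyp4a2 and Cyp4a3 had no read, and Cyp4a8, Adh1 and Adh7 had 2, 2 and 17. Of the signalling entries of the PPAR list, the integrin-linked kinase gene Ilk rose by 0.76 ± 0.08 and Pdpk1, a kinase upstream of AKT, fell by 1.00 ± 0.14 from 16.5 ± 1.86 to 8.69 ± 1.85 FPKM.

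Genes of the same route that the annotation rule does not include were set beside these. Over all tested genes, 36.3% were called higher after OGD and 36.8% lower. Of 14 tested PPAR targets and uncoupling genes, 12 were higher and 1 lower, with a median log2 change of 2.10. Ucp2, an uncoupling protein homologue, rose by 2.65 ± 0.09 and the acyl-CoA thioesterase gene Acot1 by 2.78 ± 0.08. Pdk4, whose kinase inhibits pyruvate dehydrogenase, rose by 5.15 ± 0.18. The gene that fell was Vldlr, a lipoprotein receptor (-1.27 ± 0.08). A list of 11 genes of carnitine handling, electron transfer and other acyl-CoA steps (Decr2, Mcee, Pcca and Pccb) was higher throughout (median 1.2). It included Etfa and Etfb, which pass electrons from the acyl-CoA dehydrogenases to the respiratory chain, at 1.26 ± 0.07 and 1.69 ± 0.08. The carnitine transporter gene Slc22a5 was at 1.80 ± 0.09. Peroxisome genes held 11 higher and 5 lower of 21 (median 0.41), with catalase (Cat) at 1.23 ± 0.06, Phyh at 1.14 ± 0.08 and Pex11a at 1.31 ± 0.13.

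Coregulators and fatty acid synthesis did not share that direction. Of 11 coregulator genes of nuclear receptors 4 were higher and 6 lower (36.4% and 54.5%, median -0.35). All tested genes gave 36.3% higher and 36.8% lower, and differences from these shares were not tested. Nrip1 and Ncor1, both corepressors, fell by 1.12 ± 0.14 and 0.63 ± 0.09, and Lpin2 by 1.10 ± 0.07. Fatty acid synthesis held 4 higher and 6 lower of 13 (30.8% and 46.2%, median -0.05). Fasn, the fatty acid synthase gene, was at 172, 167 and 135 FPKM in controls and 47.4, 39.9 and 43.6 FPKM in OGD and fell by 1.94 ± 0.12. Acly, which makes cytosolic acetyl-CoA for synthesis, fell by 1.17 ± 0.08. Mlycd, whose enzyme degrades malonyl-CoA, the inhibitor of carnitine palmitoyltransferase 1, rose by 1.37 ± 0.09. Of the acetyl-CoA carboxylase genes, whose enzymes make malonyl-CoA, Acacb rose by 1.54 ± 0.16 to 3.6 ± 0.701 FPKM and Acaca fell by 0.94 ± 0.10 to 15.7 ± 0.461 FPKM.

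**Figure D4:**
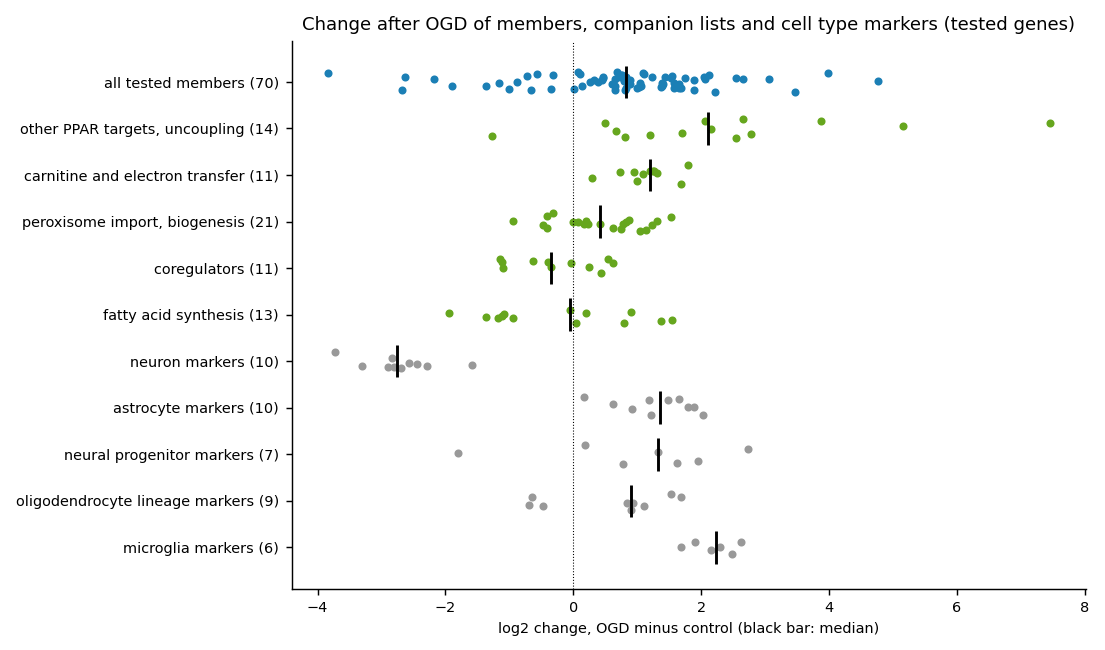
Log2 change after OGD of each tested gene in the 2 pathways (blue), in 5 further lists of the same route (green) and in 5 lists of cell type markers (grey), with list size in brackets and the median as a black bar. The pathway median is 0.82, neuron markers lie wholly below 0 (median -2.75), and astrocyte and microglia markers lie above 0 (medians 1.35 and 2.22). The green point at 7.45 is Ucp3, which had no read in controls, so its fitted value is no measure of size.

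Adding Wnt3a plus Rspondin 1 was then compared with OGD alone, the comparison that asks what changes with these Wnt pathway proteins in the deprived cultures as a whole. None of the 70 tested genes was called by edgeR, where 0.197% of all tested genes were. The unadjusted p was under 0.05 for 8 of the 70, a larger share than the 5.73% of all tested genes (784 of 13693). That difference in share was not tested. DESeq2 called only Echs1, whose reads in this comparison come from a single OGD library. The median log2 change was -0.03 for these genes and 0.00 for all tested genes. Angptl4 was at 184, 236 and 243 FPKM (log2 change -0.11 ± 0.14, 95% interval -0.40 to 0.19), Cpt1a at 95.9, 87.5 and 90.7 FPKM (-0.12 ± 0.07, interval -0.28 to 0.03) and Fabp7 at 2741, 2893 and 2580 FPKM (-0.02 ± 0.08, interval -0.19 to 0.15). Their ranges all overlapped those of OGD alone.

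The 5 genes with the smallest p were all lower with the proteins, and none passed the adjustment. Of the 8 genes with an unadjusted p under 0.05, only Acox2 was higher (log2 change 0.78 ± 0.34, adjusted p = 0.849). It was at 0.26 ± 0.0173 FPKM in OGD and 0.453 ± 0.0451 FPKM with Wnt3a plus Rspondin 1. Scd4 was at 5.6, 4.32 and 5.08 FPKM in OGD and 3.35, 3.21 and 4.27 FPKM with Wnt3a plus Rspondin 1, where the groups were separated by a narrow gap (log2 change -0.58 ± 0.17, adjusted p = 0.436). Fabp3 was at 66.1 ± 8.73 and 53.2 ± 5.67 FPKM (-0.33 ± 0.11, adjusted p = 0.556), with overlapping ranges. Cyp27a1 changed by -0.50 ± 0.18 (adjusted p = 0.645), Slc27a5 by -0.38 ± 0.14 (adjusted p = 0.699) and Cpt1b by -0.29 ± 0.12 (adjusted p = 0.802). Receptor genes had changes between -0.22 (Rxra) and 0.22 (Rxrg) and none was called. For Lpl, at 0.4 to 0.63 FPKM, the 95% interval of -0.82 to 0.39 leaves sizes of change that this depth could not resolve. Of the 10 astrocyte markers, only Gja1 was called, and it was higher with the proteins (0.38, adjusted p = 0.0404). The other 9 were not called, and the median log2 change of the list was -0.05. Gfap was lower at -0.25 ± 0.09 (adjusted p = 0.592).

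Set against untreated control, cultures with OGD and both proteins had 50 higher and 12 lower genes of the 70 tested, with 72.6% of all tested genes called, 36.6% higher and 36% lower. This comparison shares its libraries with the others, so its values are given side by side only. Angptl4 was 4.66 higher than control on the log2 scale (4.77 with OGD alone), Cpt1a 1.94 (2.06) and Acadl 2.21 (2.12). On the lower side, Lpl was at -4.06 (-3.84), Rxrg at -2.46 (-2.68) and Acsl4 at -2.40 (-2.63). Rxrb and Acsl3, called with OGD alone, were not called here.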

How the data were processed

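RNA was sequenced from 9 libraries (TruSeq RNA kit, per the labels' protocols). Bowtie 0.12.2 and mouse builds are listed in the submitters' processing notes, although samples and gene identifiers are rat; counter, rat build, annotation and strand are not given in the sources used here. The authors deposited whole-number counts per gene and FPKM values, which are scaled by gene length and library total. For some genes, among them Acsl6, Rxrb and Gk, the length behind the FPKM was not the same in every library. Their changes in FPKM and their log2 changes from counts therefore differ in size, and family shares carry that difference. Log2 fold changes, p-values and FDRs that the authors deposited come from an unnamed test and are not quoted. Control and OGD columns were matched to samples by title. Columns named WR were taken to be the samples titled RW, by treatment and replicate number, since no title has that name.

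Counts were fitted with edgeR 4.0.16 (R 4.3.3): filterByExpr (minimum count 10), TMM factors of 0.943 to 1.033, 1 robust quasi-likelihood fit of 3 group means with 6 residual degrees of freedom, Benjamini-Hochberg adjustment over 13693 tested genes of 17332 with a read. Changes are log2 with a prior count of 0.125. The script was tested on simulated data. FPKM served for levels and family shares. Promoter windows were RefSeq's (GRCr8).

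Named genes were, per role, up to 4 with the smallest p and those moving against the rest, the receptors, Angptl4, Cpt1a and Fabp7, the 3 most abundant, the 5 with the smallest p for Wnt3a plus Rspondin 1, and up to 3 per further list; others were named after their values were seen, to account for the genes. Some named genes are not reported here. Genes, lists and rules were chosen with earlier results of these data known. Symbols Ep300, Pex19, Pecam1, Itgam and Col1a2 were not matched. Alternatives were RLE size factors, library totals, no filter, DESeq2 1.42.0, a replicate block, the compared libraries only, and leaving out each replicate. Counting error alone underlies a floor of 3 counts per library.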

Additional observations from a re-analysis of the deposited data

How the results depend on the processing

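Counts of called genes stayed within 1.5 times the reported value under the 12 alternatives run for each comparison with control, from 63 to 68 for OGD (the highest without a filter, where more than 70 genes are tested) and 60 to 64 with Wnt3a plus Rspondin 1. With a replicate block over all 9 libraries, 63 were called for OGD against control and 0 for Wnt3a plus Rspondin 1 against OGD. That block includes the controls, so a pairing of both OGD groups alone was not tested. Same-numbered libraries deviated together weakly (r from -0.055 to 0.273 for control and OGD, 0.073 to 0.267 for both OGD groups, where every library correlated best with its own number, and -0.069 to 0.067 for control and the treated group), so the numbers were not taken as pairs. DESeq2 called 1 gene for Wnt3a plus Rspondin 1 against OGD. The median log2 change after OGD was 0.909 with library totals, a scaling that moves the median of all genes to 0.105, and 0.762 to 0.888 when single replicates were left out, lowest without OGD replicate 1 and highest without OGD replicate 2. Of 74 single gene results, 71 kept direction and side of the threshold. The exceptions passed it: Cpt1c at 0.22 with library totals, Scd2 at 0.18 with library totals and 0.17 without OGD replicate 1, and Gk at -0.42 without OGD replicate 2; the cause was not tested. Depth limits genes under about 1 FPKM.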
